A study of Saccharomyces cerevisiae with 18 samples.

Results

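RGI1, RGI2 and USV1 are 3 budding yeast genes named for, or tied to, growth by respiration. They were chosen by their fold change 0.5 h after galactose was added. Their mRNA was then lower in ZCZ01 cells than in wild type (WT) cells. That difference, which chose the genes, is given as a description without a test. They make up 3 of the 6692 probes in the count tables, a probe being a gene with the 100 bases downstream of it, and all 3 were among the 5539 genes with enough reads to be tested. ZCZ01 is a derivative of BY4741, the haploid laboratory strain that served as WT, in which PPZ1 is expressed from the GAL1-10 promoter. Galactose therefore switches PPZ1 on in ZCZ01, while WT keeps the native promoter and receives the same sugar. Both strains were grown in YPD, moved to raffinose medium, brought to 2% galactose, and collected after 0.5, 2 and 4 h in 3 experiments. This gave 18 libraries, with 3 for each strain and time. None was from before galactose, so whether the strains differed on raffinose alone cannot be told.

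Rgi1 and Rgi2 are small related proteins that arose from the whole-genome duplication. Their genes are repressed by glucose and are induced when yeast turns to respiration, and both act in energy metabolism under respiration. USV1, also called NSF1, encodes a zinc finger transcription factor of the C2H2 class that is needed for full expression of genes used on nonfermentable carbon and under salt stress. PPZ1 encodes a Ser/Thr protein phosphatase of fungi that acts on monovalent cation balance and arrests growth when it is made in excess. Galactose is taken in and fermented or respired through the Leloir pathway, and raffinose is split by invertase outside the cell, so neither sugar represses respiratory genes as strongly as glucose does.

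RGI1 (YER067W) lies on the forward strand at chrV:292066-292551. RGI2 (YIL057C) lies on the reverse strand at chrIX:247902-248396, and USV1 (YPL230W) on the forward strand at chrXVI:115312-116487. All coordinates are those of the S. cerevisiae R64 assembly of RefSeq, and the annotation gives each gene 1 uninterrupted coding exon. The stretches from 400 to 101 bases before the start codons of RGI1 and USV1 are shown because a short motif known to bind the stress factors Msn2 and Msn4 can be read in them. Capitals mark that motif, AGGGG (or CCCCT, the same motif on the other strand), and each stretch is printed 5′ to 3′ on the strand of its gene.
RGI1, chrV:291666-291965, forward strand: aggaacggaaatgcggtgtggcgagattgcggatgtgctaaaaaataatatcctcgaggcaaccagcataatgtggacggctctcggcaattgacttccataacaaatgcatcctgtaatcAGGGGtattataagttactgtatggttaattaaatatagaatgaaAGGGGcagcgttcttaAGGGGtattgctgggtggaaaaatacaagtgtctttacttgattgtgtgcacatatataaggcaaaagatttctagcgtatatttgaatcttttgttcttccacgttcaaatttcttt
USV1, chrXVI:114912-115211, forward strand: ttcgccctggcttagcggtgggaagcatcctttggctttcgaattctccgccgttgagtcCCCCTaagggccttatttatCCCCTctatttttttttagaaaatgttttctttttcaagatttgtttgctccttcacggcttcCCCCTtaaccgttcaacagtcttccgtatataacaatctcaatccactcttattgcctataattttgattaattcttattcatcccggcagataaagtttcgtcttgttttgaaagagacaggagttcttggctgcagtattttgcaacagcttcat
The RGI1 stretch held 3 copies of AGGGG on its own strand, which begin 279, 234 and 218 bases before the start codon. The USV1 stretch held 3 copies on the opposite strand, with their outer ends 340, 320 and 257 bases before its start codon. Of 6007 such stretches in the genome, 23.6% held at least 1 copy on either strand and 0.816% held at least 3. GCGGGG and GTGGGG, forms of the GC box of the glucose repressor Mig1, were in neither stretch on either strand, against 3.83% and 5.51% of all stretches. CCAAT, the box of the Hap complex, and TATAAA were also in neither, against 43.9% and 43.8% of all stretches. Only the exact letters TATAAA were searched for, so a TATA box of another form could be present. All of these are matches of letters and not measured binding.

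The libraries held 422741 to 1862259 reads assigned to probes, with a median of 1250480. Values are given as CPM (reads of the gene per 1000000 reads of the library), scaled between libraries by the trimmed mean of M values (TMM). The libraries come from read tags at the 3′ ends of mRNA, so a level does not grow with the length of the gene. PPZ1 served as a check of the strains and had 716, 167 and 226 reads in ZCZ01 at 0.5 h in experiments 1, 2 and 3, against 13, 6 and 5 in WT. At 2 h it was 31.8-fold higher in ZCZ01 (log2 fold change 4.99 ± 0.49 SE, adjusted p = 4.37e-06) and at 4 h 6.85-fold higher (2.78 ± 0.59 SE, adjusted p = 0.00196), and both calls held with experiments 2 and 3 summed (adjusted p = 4.17e-04 and 0.0198). These p-values, like those that follow, are from the quasi-likelihood test of edgeR with Benjamini-Hochberg adjustment over the 5539 genes, and a gene was called at an adjusted p under 0.05. The genes called higher in ZCZ01 made up 19.0% of those tested at 2 h and 19.7% at 4 h. At 0.5 h the ratio of PPZ1 between the strains was largest in experiment 1 (58.1, against 18.7 and 30.5 in experiments 2 and 3). At 2 h and 4 h it was smallest there. The ratio at 2 h was 8.30 in experiment 1, against 63.9 and 69.1 in experiments 2 and 3. Without experiment 1 the log2 fold change was 6.08 at 2 h and 3.79 at 4 h, against 4.39 and 2.17 without experiment 3. In experiment 1 at 4 h PPZ1 had only 21 reads in ZCZ01 against 12 in WT, a ratio of 2.03 with a 95% exact interval of 0.953 to 4.52. Of the genes that BY4741 lacks in whole or in part, MET17 had 0 reads in every library, LEU2 at most 1 and URA3 at most 25, and HIS3 had 22 to 258.

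Of 2 features of the data that bear on every test, the first is the likeness of experiments 2 and 3. Their counts differed by 1.07 to 1.19 times the variance that counting alone gives, against 18.8 to 29.5 times between experiment 1 and either of them. Nothing says whether the 3 experiments were grown apart, so the p-values measure only the spread between these samples, and they are too small if experiments 2 and 3 share a culture. Each test of RGI1, RGI2 and USV1 is therefore also given with the reads of experiments 2 and 3 summed into 1 sample. The second is the time, since for 12 of the 18 libraries the title of the sample and the name of the library disagree on it. The titles give 30 min to every library of experiment 1, 120 min to experiment 2 and 240 min to experiment 3. By the names, each time of the titles therefore pools the 0.5, 2 and 4 h libraries of 1 experiment. The names, which are also those of the count columns, were followed. With the times of the titles edgeR called 0 genes lower in ZCZ01 at 2 h and 0 at 4 h (2 and 1 higher, and 668 and 710 at an unadjusted p under 0.05), and RGI1, RGI2 and USV1 were not called.

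RGI1 was lower in ZCZ01 than in WT at both 2 h and 4 h, by about 4 times at each. At 2 h it had 62.6, 99.1 and 82.7 CPM in ZCZ01 in experiments 1, 2 and 3, against 256, 367 and 302 CPM in WT. At 4 h it had 83.2, 167 and 171 CPM in ZCZ01, against 257, 818 and 817 CPM in WT. The highest ZCZ01 library lay below the lowest WT library at both times, a separation that 24.2% of all genes showed at 2 h and 20.3% at 4 h. Means were 81.5 ± 18.3 CPM in ZCZ01 and 308 ± 55.5 CPM in WT at 2 h, and 140.2 ± 49.4 CPM in ZCZ01 and 631 ± 323 CPM in WT at 4 h (SD, n = 3 each). In bulk samples such as these, less RNA per cell and fewer cells that express the gene cannot be told apart. RGI1 was 3.80-fold lower at 2 h (log2 fold change -1.93 ± 0.20 SE, adjusted p = 7.28e-06), where 23.3% of all genes were called lower. It was 4.23-fold lower at 4 h (-2.08 ± 0.19 SE, adjusted p = 1.62e-06), where 21.6% were. Ordered by fold change, RGI1 was the 91st lowest of the 5539 genes at both times. Summing experiments 2 and 3 gave -1.91 (adjusted p = 7.38e-04) and -1.96 (adjusted p = 5.08e-04), and over the 14 alternatives that kept the times of the library names the adjusted p reached 0.00791 at 2 h and 0.00357 at 4 h.

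Within the experiments, RGI1 was 4.10-fold lower in ZCZ01 in experiment 1 at 2 h, 3.70-fold lower in experiment 2 and 3.65-fold lower in experiment 3. At 4 h the same ratios were 3.09, 4.91 and 4.79. Experiment 1 thus had the largest of the 2 h ratios and the smallest of the 4 h ratios. The difference between the strains was not called different at 4 h from that at 2 h (4 h minus 2 h, -0.15 ± 0.27 SE, adjusted p = 0.749; summed, -0.04, adjusted p = 0.972), a test that 13.2% of all genes passed in either direction. Without experiment 1 this difference was -0.47 and was called (adjusted p = 0.0175), on the 2 experiments that are alike.

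RGI2, the paralog of RGI1, was nearly lost from ZCZ01 by 4 h and was also low in WT. At 2 h it had 3.03, 0 and 8.39 CPM in ZCZ01 in experiments 1, 2 and 3, which are 3, 0 and 7 reads, against 25.8, 44.8 and 39.5 CPM in WT, which are 41, 44 and 54 reads. At 4 h it had 0, 0.677 and 0.569 CPM in ZCZ01, from 0, 1 and 1 reads, against 21.4, 14.9 and 11.6 CPM in WT, from 25, 7 and 9 reads. All ZCZ01 libraries lay below all WT libraries at both times, a separation shown by 24.2% of all genes at 2 h and 20.3% at 4 h. The fitted log2 fold change was -3.04 ± 0.41 SE at 2 h (adjusted p = 6.33e-05; summed, -2.99, adjusted p = 3.67e-04) and -4.74 ± 0.66 SE at 4 h (adjusted p = 7.91e-05; summed, -4.81, adjusted p = 1.81e-04). Ordered by fold change it was the 18th lowest of the 5539 genes at 2 h and the 4th lowest at 4 h. Over the 14 alternatives that kept the times of the library names the adjusted p reached 0.00236 at 2 h and 0.00118 at 4 h.

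The size of this fold change is loose, because it rests on few reads. In experiment 1 at 2 h RGI2 was 8.53-fold lower in ZCZ01 (95% exact interval of the counts 2.72 to 43.0) and in experiment 3 it was 4.71-fold lower (2.14 to 12.3). In experiment 2, where ZCZ01 had 0 reads, it was at least 7.84-fold lower, taking 3 counts as the limit that 0 reads in a library allow. The exact interval, which also counts the error of the WT reads, allows 6.11-fold. At 4 h it was at least 7.19-fold lower in experiment 1 by the limit of 3 counts and 5.43-fold by the exact interval. The 4 h ratios of experiments 2 and 3 were 22.0 (2.82 to 989.6) and 20.4 (2.82 to 893). These intervals and limits cover counting error only. ZCZ01 was thus below WT in all 6 pairs of libraries, and the intervals of the 6 ratios overlap. Without experiment 3 the 2 h value was -3.93, and limma on log2 of CPM plus 1 gave -3.61 at 4 h, both still called. The change in the strain difference between 2 h and 4 h was not called (-1.70 ± 0.93 SE, adjusted p = 0.245; summed, -1.82, adjusted p = 0.306).

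RGI1 and RGI2 are close enough in sequence for the question whether reads could be shared between them. Their coding sequences of 486 and 495 bases align over 485 base pairs, of which 323 (66.6%) are identical, and the longest run of letters that their probes share is 11 bases. The last 120 coding bases, next to the 3′ ends that the libraries read, are given with capitals at each base that has no identical partner in the alignment of the 2 genes.
RGI1, chrV:292432-292551, forward strand: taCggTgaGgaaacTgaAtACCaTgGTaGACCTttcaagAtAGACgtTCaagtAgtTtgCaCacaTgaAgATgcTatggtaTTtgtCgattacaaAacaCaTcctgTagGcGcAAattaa
RGI2, chrIX:247902-248021, reverse strand: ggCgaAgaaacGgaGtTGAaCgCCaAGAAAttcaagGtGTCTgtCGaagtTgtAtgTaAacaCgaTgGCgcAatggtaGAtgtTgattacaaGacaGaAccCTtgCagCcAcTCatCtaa
There are 43 such bases in the RGI1 end and 45 in the RGI2 end. Differences stand every few bases, and a read that holds several of them can be placed on 1 of the 2 genes.

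The balance of the pair moved toward RGI1 after 0.5 h in both strains. It is given as a share of reads, the 2 coding sequences being nearly the same length, and with no test. At 0.5 h RGI2 took 31.7%, 22.5% and 25.3% of the reads of the pair in ZCZ01 in experiments 1, 2 and 3, against 23.5%, 29.0% and 30.3% in WT. At 2 h it took 4.62%, 0% and 9.21% in ZCZ01, against 9.15%, 10.9% and 11.6% in WT. At 4 h it took 0%, 0.405% and 0.332% in ZCZ01, against 7.67%, 1.79% and 1.40% in WT. The 4 h shares had 95% exact (Clopper-Pearson) intervals up to 2.23% and 1.84% in experiments 2 and 3 of ZCZ01, which overlap those of WT, from 0.721% to 3.64% and from 0.642% to 2.64%. In experiment 1 the 0 of 84 reads in ZCZ01 allows a share of up to 3.57% by the limit of 3 counts and 4.30% by the exact interval. Both lie below the lower bound of 5.02% in WT. These intervals compare single libraries and cover counting error only.

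USV1, the transcription factor of the 3, was lower in ZCZ01 by a smaller factor, and its groups overlapped. At 2 h it had 19.2, 36.2 and 44.3 CPM in ZCZ01 in experiments 1, 2 and 3, against 42.8, 45.8 and 52.0 CPM in WT. At 4 h it had 34.7, 72.4 and 64.3 CPM in ZCZ01, against 54.7, 127 and 117 CPM in WT. Experiment 1 was the lowest of its group in all 4 of these groups, and within every experiment ZCZ01 was below WT at both times. The fit paired by experiment gave a 1.73-fold lower level at 4 h (log2 fold change -0.79 ± 0.18 SE, adjusted p = 0.00323) and a 1.47-fold lower level at 2 h (-0.56 ± 0.21 SE, adjusted p = 0.0458). Neither passed with experiments 2 and 3 summed (at 4 h -0.74, adjusted p = 0.0562, and at 2 h -0.60, adjusted p = 0.142).

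The 2 h call of USV1 was held by 2 of the 14 alternatives that kept the times of the library names, with adjusted p from 0.0376 to 0.423, and it ended without any 1 of the 3 experiments. Only in experiment 1 did the interval of the ratio leave out 1 at that time. USV1 was 2.23-fold lower there (95% exact interval of the counts 1.33 to 3.93), but 1.27-fold lower in experiment 2 (0.725 to 2.29) and 1.17-fold lower in experiment 3 (0.777 to 1.80). Without experiment 1 the 2 h value was -0.23. At 4 h the ratios were 1.58, 1.76 and 1.82, and 10 of the 14 alternatives held the call, with adjusted p from 2.28e-07 to 0.174. That call ended without experiment 2 (-0.77), without experiment 3 (-0.72) and without the pairing (-0.76). The strain difference at 4 h minus that at 2 h was -0.23 ± 0.28 SE (adjusted p = 0.61; summed, -0.14, adjusted p = 0.879). By fold change USV1 was the 1354th lowest of all genes at 2 h and the 864th at 4 h.

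All 3 genes were thus called lower at both times by the paired test, against 23.3% of all genes at 2 h and 21.6% at 4 h. With experiments 2 and 3 summed, RGI1 and RGI2 were called at both times, against 12.8% of all genes at each. The 3 genes were chosen as lower at 0.5 h in these same experiments. Their counts at 2 h and 4 h are therefore not comparable with the shares over all genes, and nothing is read from them. The median log2 fold change over all genes was -0.06 at 2 h and -0.00 at 4 h.

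**Figure D1:**
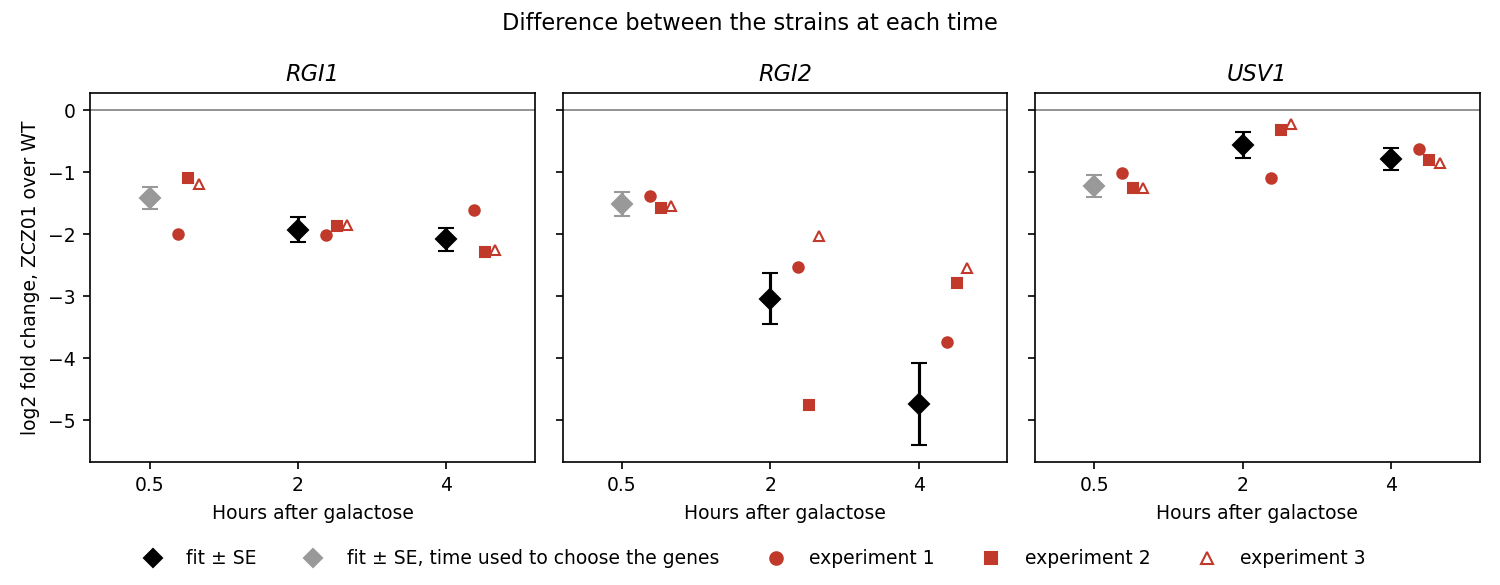
Log2 ratio of ZCZ01 to WT for RGI1, RGI2 and USV1 at 0.5, 2 and 4 h, with points for the ratio within each experiment (2 counts added before the logarithm, which draws the ratios of RGI2 toward 0) and diamonds with bars for the fitted value ± 1 SE. The fitted values of RGI1 were -1.93 and -2.08 at 2 h and 4 h, those of RGI2 -3.04 and -4.74 and those of USV1 -0.56 and -0.79. The 0.5 h values chose the genes.

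At 0.5 h, the time that chose them, the 3 genes had like differences between the strains. RGI1 had 183, 629.8 and 586 CPM in ZCZ01 in experiments 1, 2 and 3, against 732, 1344 and 1336 CPM in WT. RGI2 had 85.1, 183 and 198 CPM in ZCZ01, against 224, 549 and 581 CPM in WT. USV1 had 24.1, 49.4 and 46.9 CPM in ZCZ01, against 50.4, 120.0 and 114 CPM in WT. In each gene experiment 1 had the lowest level of its group, and the WT library of experiment 1 lay above the highest ZCZ01 library. The groups did not overlap in any of the 3, which held for 10.0% of all genes, a count from which nothing is read here. The fitted log2 differences were -1.42 ± 0.18 SE for RGI1, -1.51 ± 0.20 SE for RGI2 and -1.22 ± 0.18 SE for USV1.

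Over time the 3 genes took different courses. By its mean, RGI2 was lowest at 4 h in both strains, whereas RGI1 and USV1 were lowest at 2 h in both. Between 0.5 h and 2 h the fitted log2 change was -2.38 in ZCZ01 and -1.82 in WT for RGI1, and -0.26 in ZCZ01 and -0.90 in WT for USV1. For RGI2 it was -5.08 in ZCZ01 and -3.55 in WT, the lowest value of all 5539 genes in both strains. These values use the 0.5 h libraries and are given without a test, and they share the 2 h libraries with the changes between 2 h and 4 h.

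Between 2 h and 4 h the level of RGI1 was higher at 4 h in WT by the paired test (log2 0.87 ± 0.23 SE, adjusted p = 0.0242), where 5.25% of all genes were called higher. It was not called with experiments 2 and 3 summed (0.68, adjusted p = 0.429), and over 11 alternatives the adjusted p ran from 6.85e-69 to 0.522. The rise was in experiments 2 and 3 only: the 4 h level was 2.23 and 2.71 times the 2 h level there, and 1.00 times (0.862 to 1.17) in experiment 1, and without experiment 2 or 3 the call ended (0.74 and 0.59). In ZCZ01 the change of RGI1 was 0.73 ± 0.26 SE and was not called (adjusted p = 0.103; summed, 0.66, adjusted p = 0.509). Over 11 alternatives its adjusted p ran from 8.93e-10 to 0.599, and it was called without experiment 1 alone (0.91).

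USV1 was higher at 4 h than at 2 h in both strains by the paired test. The log2 change was 0.77 ± 0.22 SE in ZCZ01 (adjusted p = 0.0498), where 2.65% of all genes were called higher, and 0.97 ± 0.20 SE in WT (adjusted p = 0.00496). Neither was called with experiments 2 and 3 summed (0.77, adjusted p = 0.361 in ZCZ01, and 0.85, adjusted p = 0.213 in WT). Over 11 alternatives the adjusted p ran from 0.00402 to 0.428 in ZCZ01 and from 1.06e-12 to 0.268 in WT, and leaving out experiment 2 or 3 ended both calls (0.66 and 0.93 in ZCZ01, 0.77 and 0.87 in WT). The 4 h level was 1.81, 2.00 and 1.45 times the 2 h level in ZCZ01 in experiments 1, 2 and 3, against 1.28, 2.78 and 2.26 times in WT.

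RGI2 went the other way in WT, with a log2 change of -0.99 ± 0.38 SE at 4 h relative to 2 h that was not called (adjusted p = 0.108; summed, -0.89, adjusted p = 0.399). Its 4 h level in WT was lower than that at 2 h in 3 of 3 experiments, by 1.21-fold (0.717 to 2.07), 3.02-fold (1.35 to 7.93) and 3.41-fold (1.67 to 7.85). Without experiment 1 the change was -1.63 and was called. In ZCZ01 both times were at or near 0 reads, and the fitted change of -3.04 ± 1.04 SE was not called (adjusted p = 0.092; summed, -3.13, adjusted p = 0.279).

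The order of the mean levels shows how far each gene moved. RGI1 stood at 1137 CPM in WT at 0.5 h, then at 631 in WT at 4 h, 466 in ZCZ01 at 0.5 h, 308 in WT at 2 h, 140.2 in ZCZ01 at 4 h and 81.5 in ZCZ01 at 2 h. Of neighbours in that order, only WT at 2 h and ZCZ01 at 4 h did not overlap. RGI2 stood at 451 CPM in WT and 155 in ZCZ01 at 0.5 h, 36.7 in WT at 2 h, 15.9 in WT at 4 h, and 3.81 and 0.415 in ZCZ01 at 2 h and 4 h. All of these neighbours were apart except the last 2. USV1 spanned only 33.2 CPM in ZCZ01 at 2 h to 99.8 CPM in WT at 4 h, and all neighbours in its order overlapped.

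Of the genes next to the 3 that could be tested, none was called lower in ZCZ01 at 4 h, and FAS2, next to USV1, was called lower at 2 h. On the strand opposite RGI1, YER066C-A and YER067C-A overlap its probe by 138 and 424 bases, and each had 0 or 1 reads in every library. RRT13 and MOT2, the nearest genes on its own strand, had log2 fold changes at 4 h of 0.16 ± 0.27 SE (adjusted p = 0.673) and -0.27 ± 0.21 SE (adjusted p = 0.33). Downstream of RGI2, YIL058W had at most 2 reads in a library, and beyond its other end VHR1, a transcription factor gene, had 0.16 ± 0.26 SE (adjusted p = 0.66) and was higher at 2 h (0.76 ± 0.28 SE, adjusted p = 0.0415; summed, adjusted p = 0.0969). Next to USV1, YPL229W had -0.34 ± 0.39 SE (adjusted p = 0.526), while FAS2, the alpha subunit of fatty acid synthase, was lower at 2 h (-0.46 ± 0.13 SE, adjusted p = 0.0135; summed, adjusted p = 0.311) and higher at 4 h (0.79 ± 0.13 SE, adjusted p = 3.53e-04; summed, adjusted p = 0.0165). RGM1, the paralog of USV1, had at most 5 reads in any library and was not tested.

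Many genes of the respiratory chain and of ATP synthase were lower in ZCZ01. The counts of this and the following lists stand against all genes tested, of which 23.3% were called lower and 19.0% higher at 2 h, and 21.6% lower and 19.7% higher at 4 h. The list held 41 genes for subunits of the respiratory chain, cytochrome c, NADH dehydrogenases and subunits of ATP synthase. Of these, 27 were lower and 1 higher at 2 h, and 33 were lower and 1 higher at 4 h. The median of the list was -0.76 at 2 h and -1.04 at 4 h, in log2 units. Of the same genes, 22 and 24 were lower with experiments 2 and 3 summed, against 12.8% of all genes at each time. Without experiment 1, 7 of them were higher at 2 h, against 26.9% of all genes in that run. CYC1, iso-1-cytochrome c, had 51.0 ± 6.02 CPM in ZCZ01 and 342 ± 96.5 CPM in WT at 4 h (SD, n = 3 each; -2.72 ± 0.24 SE, adjusted p = 1.32e-06). SDH1, the flavoprotein of succinate dehydrogenase, had 41.4 ± 9.22 CPM in ZCZ01 and 211 ± 8.61 CPM in WT (SD, n = 3 each; -2.35 ± 0.24 SE, adjusted p = 4.65e-06). The gene that was higher at 4 h was NDE2, an external NADH dehydrogenase of mitochondria (1.69 ± 0.41 SE, adjusted p = 0.00507).

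Genes for the use of nonfermentable carbon, among them the glyoxylate cycle, gluconeogenesis and uptake of lactate, were called in both directions. Of 18 tested, 3 were lower and 3 higher at 2 h, and 3 were lower and 10 higher at 4 h, with medians of 0.39 and 0.85. Only the count higher at 4 h was above the share over all genes. With experiments 2 and 3 summed, 2 of 19 were lower and 0 higher at 2 h, and 3 were lower and 8 higher at 4 h. The count higher at 2 h was 5 without experiment 1 and 1 without experiment 3, against 26.9% and 9.85% of all genes in those runs. MDH2, the cytosolic malate dehydrogenase, and JEN1, the lactate and pyruvate permease, were lower at 4 h (-1.64 ± 0.19 SE, adjusted p = 1.6e-05, and -1.46 ± 0.18 SE, adjusted p = 3e-05). CTA1, the peroxisomal catalase, and ADH2, the alcohol dehydrogenase that consumes ethanol, were higher (3.41 ± 0.47 SE, adjusted p = 7.85e-05, and 2.96 ± 0.53 SE, adjusted p = 5.78e-04). The size of these 2 changes is loose, since WT at 4 h had 5, 3 and 1 reads of CTA1 and 76, 5 and 6 of ADH2 in experiments 1, 2 and 3. At 4 h RGI1, RGI2 and USV1 lay on the side of the smaller number in this list.

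Among 16 tested regulators of glucose repression and its release, 5 were lower and 2 higher at 2 h and 4 were lower and 2 higher at 4 h, with medians of -0.00 and -0.11. The 4 h counts are near or below the shares over all genes. The count higher at 2 h was 3 without experiment 1, 0 without experiment 2 and 1 without experiment 3. With experiments 2 and 3 summed these counts were 4 and 2 of 17 at 2 h and 1 and 0 at 4 h, and without experiment 2 they were 2 and 0 at 4 h, without experiment 3 1 and 0. CAT8, the activator of gluconeogenic genes, was lower at 4 h with either treatment of the experiments (-1.62 ± 0.25 SE, adjusted p = 1.61e-04; summed, -1.496, adjusted p = 0.00541). HAP2, a subunit of the CCAAT-binding complex, was lower (-0.95 ± 0.30 SE, adjusted p = 0.0204), and MIG2, a repressor related to Mig1, and SIP4, an activator related to Cat8, were higher (1.75 ± 0.53 SE, adjusted p = 0.0178, and 1.74 ± 0.60 SE, adjusted p = 0.0318). Those 3 were not called with experiments 2 and 3 summed (adjusted p = 0.126, 0.0573 and 0.0861). At 4 h MIG2 had 11 to 27 reads in ZCZ01 and 1 to 6 in WT, and SIP4 had 5 to 17 and 1 to 2. In WT they had at most 5.13 and 4.25 CPM, so they had enough reads for testing only through ZCZ01, where they were higher. MIG2 and SIP4 are the 2 regulators counted higher at each time, and nothing is read from that count. Of 4 tested zinc finger factors related to USV1, 0 were lower and 1 higher at 2 h and 1 was lower and 1 higher at 4 h, with medians of 0.54 and -0.11. Without experiment 1, 3 were higher at 2 h, and without experiment 2 none was at either time. MSN4, a stress activator, was lower (-1.24 ± 0.43 SE, adjusted p = 0.0335) and RPH1, a histone demethylase, higher (0.86 ± 0.22 SE, adjusted p = 0.00648) at 4 h. The MSN4 call was lost with experiments 2 and 3 summed (adjusted p = 0.0721) and the RPH1 call was not (adjusted p = 0.0298).

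The known targets of Msn2 and Msn4, whose motif AGGGG stands in capitals in the RGI1 and USV1 stretches, were mostly higher in ZCZ01. Of 26, 21 were higher and 2 lower at 2 h, and 18 were higher and 3 lower at 4 h, with medians of 2.47 and 1.82. Without experiment 1, 5 were lower at 4 h, against 28.2% of all genes in that run. The counts higher were 20 and 17 with experiments 2 and 3 summed. TKL2, a minor transketolase, averaged 564 ± 26.4 CPM in ZCZ01 and 9.67 ± 2.69 CPM in WT at 4 h (SD, n = 3 each; 5.93 ± 0.32 SE, adjusted p = 9.7e-09). ALD3, a cytosolic aldehyde dehydrogenase, averaged 1643 ± 139 CPM in ZCZ01 and 36.6 ± 3.36 CPM in WT (SD, n = 3 each; 5.46 ± 0.22 SE, adjusted p = 8.41e-10). GSY1, a glycogen synthase, and HXK1, a hexokinase of cells without glucose, went the other way (-1.91 ± 0.18 SE, adjusted p = 2.12e-06, and -1.76 ± 0.14 SE, adjusted p = 4.36e-07). RGI1 and USV1 were lower, as these few were.

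**Figure D2:**
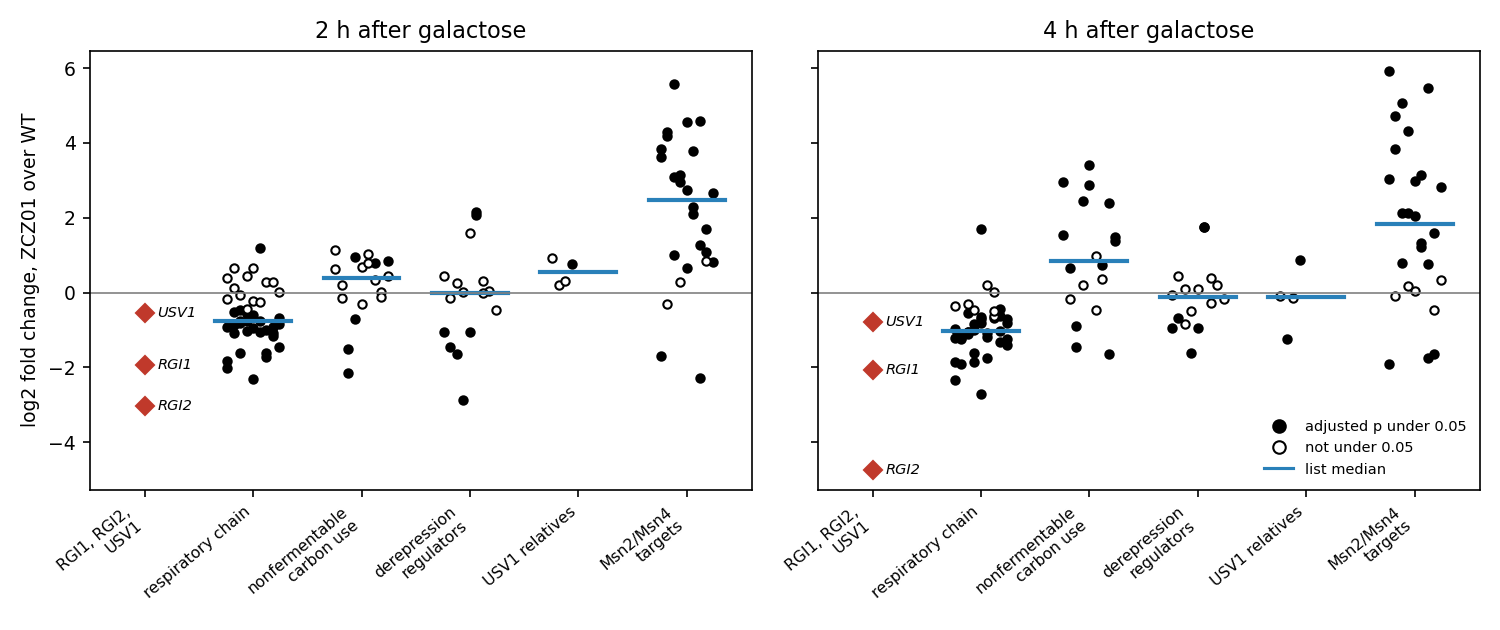
Log2 fold change of ZCZ01 over WT at 2 h (left) and 4 h (right) for each tested gene of the 5 gene lists, filled where the adjusted p was under 0.05 and open otherwise, with a line at the median of each list and diamonds for RGI1, RGI2 and USV1. The medians at 4 h were -1.04 for the respiratory chain (a list that includes ATP synthase), 0.85 for nonfermentable carbon and 1.82 for targets of Msn2 and Msn4.

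To find genes of like pattern, the log2 CPM of each gene was centred over the 18 libraries and compared by its root mean square difference, in log2 units, with that of each of the 3, over 5192 other genes with a mean of at least 10 CPM. This is a description over libraries that share strain, time and experiment. For RGI1 the nearest were GSY1 (0.48), MRK1, a kinase of the GSK-3 family (0.50), YMR206W (0.56), TMA10, a protein found with ribosomes (0.59), and CAT8 (0.60), against a median of 1.43 over all genes. For USV1 they were CMC4, a small protein of the mitochondrial intermembrane space (0.37), MBR1 (0.40), GLC3, the glycogen branching enzyme (0.44), UBC5, a ubiquitin-conjugating enzyme (0.46), and YGR130C (0.46), against a median of 0.87. Of these, GLC3 had a log2 fold change at 4 h of 0.18 (adjusted p = 0.418) and UBC5 of -0.23 (adjusted p = 0.275), so a small distance from USV1 did not need a difference between the strains.

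For RGI2, which has libraries with 0 or 1 reads, distances were larger in general. Its nearest were MAL12, a maltase (1.15), SUC2, the invertase that splits raffinose (1.20), HXK1 (1.43), YFR052C-A (1.44) and HXK2, the main hexokinase of glucose growth (1.495), against a median of 2.76. The probe of YFR052C-A overlaps that of HXK1 by 243 bases at the 3′ end of HXK1 and on the same strand. Their mean levels of 2482 and 2462 CPM are close, and which of the pair its reads come from is uncertain. RGI1 and RGI2 were 1.86 apart, which made RGI1 the 27th nearest of the genes to RGI2 but RGI2 only the 4701st nearest to RGI1. RGI1 and USV1 were 0.94 apart, USV1 being the 152nd nearest to RGI1 and RGI1 the 3347th nearest to USV1. RGI2 and USV1 were 2.61 apart, USV1 being the 1492nd nearest to RGI2 and RGI2 the 5150th nearest to USV1.

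**Figure D3:**
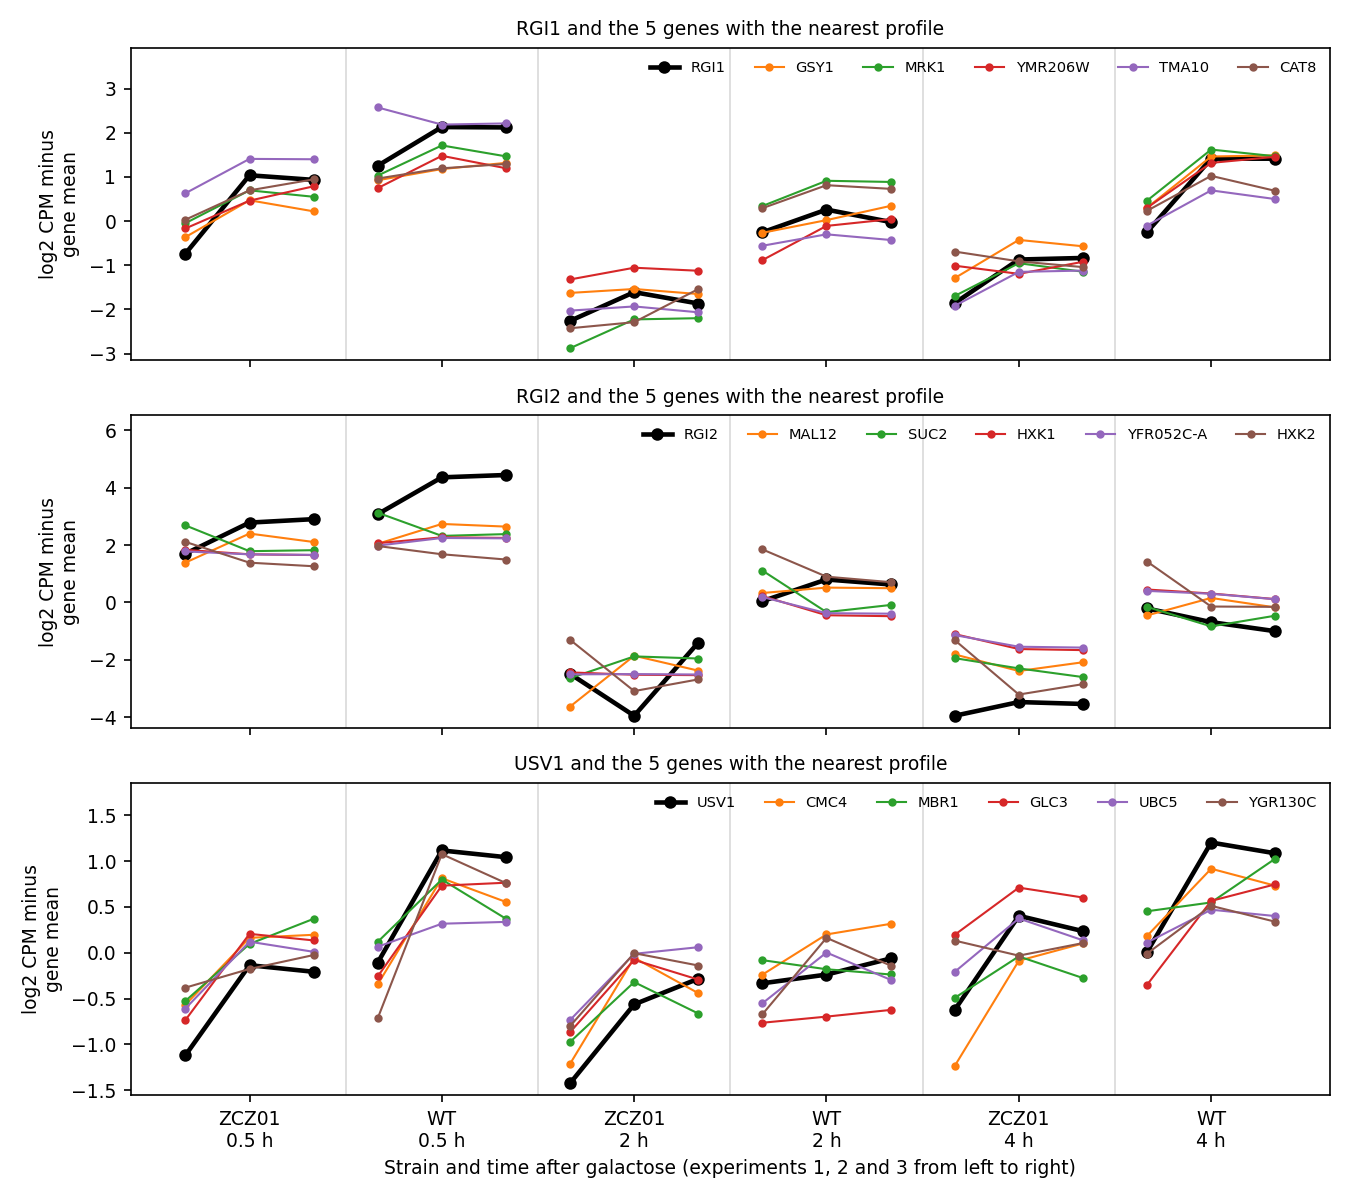
Centred log2 CPM over the 18 libraries for RGI1, RGI2 and USV1 (thick black lines) and the 5 genes nearest to each (thin lines), ordered by time with ZCZ01 left of WT and, within a group, experiments 1, 2 and 3. The lines of RGI1 and its nearest genes lie close together (0.48 to 0.60 log2 units), and those of RGI2 and its nearest genes lie farther apart (1.15 to 1.495).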

How the data were processed

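The study sequenced mRNA 3′ ends (QuantSeq) from both strains at 3 times in 3 experiments, and the submitters' processing notes name Bowtie2. The deposited counts are whole numbers per probe. In 3 libraries they are raw counts, but in 15 the deposited values equal whole reads multiplied by a library factor of 1.01 to 2.58 and rounded, and these deposited values are a score and not counts. The sources used here do not describe this step. Every probe of these 15 libraries was returned to a whole number of reads, which were used as counts, and the design had assumed counts as deposited.

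Genes were kept by filterByExpr (5539 of 6692), scaled by TMM and tested with edgeR 4.0.16 in R 4.3.3, with a block for every 1 of the 9 library pairs for the strain difference at each time, and with an experiment block for 4 h against 2 h within a strain. The numbers of the libraries pair them: deviations from group means correlated at 0.551 to 0.815 between ZCZ01 and WT of 1 experiment and time, and at 0.587 to 0.839 between 4 h and 2 h. Alternatives used DESeq2 1.42.0, RLE or total-count scaling, other filters and blocks, left-out experiments, experiments 2 and 3 summed, and the times of the titles. Added to these, the deposited values as they stand and limma 3.58.1 on log2 of CPM plus 1, were 2 alternatives chosen after seeing the data. The fitting code was tested on simulated data.

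The 3 genes and the gene lists were chosen with earlier results of these data known. Other genes were named by rule: for each list, the 2 largest called changes in each direction at 4 h, for each of the 3 genes the 5 of nearest pattern, and the neighbours on the chromosome. HAP5, MIG3, ADY2 and RGM1 had too few reads to be tested and COM2 had no probe. Sequences were read from the RefSeq R64 genome, after 5926 of 5935 matched probes were found to equal the annotated gene with 100 bases downstream. The sequence upstream of 1 of the 3 genes is not reported here. The authors' build was not given in the sources used here.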

Additional observations from a re-analysis of the deposited data

Results flagged for a closer look

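For 6 of the 34 tested genes named beside RGI1, RGI2, USV1 and PPZ1 (17.6%), the difference between ZCZ01 and WT was itself different at 4 h from that at 2 h, by the edgeR test of the change between the times (adjusted p under 0.05). Of all genes, 13.2% passed this test, and with experiments 2 and 3 summed 0.692% had a lower and 0.177% a higher difference at 4 h. CTA1, TKL2, MDH2 and HAP2 were named for their large 4 h differences, and those differences enter this test. The 17.6% is therefore not comparable with the share over all genes, and nothing is read from it. CTA1, the peroxisomal catalase, had a log2 difference between strains larger by 3.72 ± 0.64 SE at 4 h (3.41 at 4 h and -0.32 at 2 h, adjusted p = 0.00282), and it alone was also called with experiments 2 and 3 summed (3.55, adjusted p = 0.0439). Its WT libraries at 4 h held only 1 to 5 reads of it. TKL2 was up by 2.10 ± 0.47 SE (5.93 at 4 h and 3.83 at 2 h, adjusted p = 0.0113; summed, adjusted p = 0.109). MDH2 had -1.64 ± 0.28 SE (-1.64 at 4 h and 0.00 at 2 h, adjusted p = 0.00252; summed, adjusted p = 0.067). HAP2 had -1.39 ± 0.42 SE (-0.95 at 4 h and 0.44 at 2 h, adjusted p = 0.0461; summed, adjusted p = 0.244). FAS2, next to USV1, had 1.25 ± 0.19 SE (0.79 at 4 h and -0.46 at 2 h, adjusted p = 0.00118; summed, adjusted p = 0.097). YFR052C-A, whose probe overlaps HXK1, had 0.63 ± 0.19 SE (-1.70 at 4 h and -2.33 at 2 h, adjusted p = 0.0442; summed, adjusted p = 0.227). None of RGI1, RGI2 and USV1 was called in this test. Their adjusted p values were 0.749, 0.245 and 0.61.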

How the results depend on the processing

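RGI1 and RGI2 stayed lower and called at 2 h and 4 h under the 14 alternatives that kept the times of the library names; the USV1 calls did not. With the times of the titles, the log2 differences were -1.75 at 2 h and -1.77 at 4 h for RGI1, -2.38, -2.62 and -2.09 at 0.5, 2 and 4 h for RGI2, and -0.95, -0.85 and -0.81 for USV1, none called at 2 h or 4 h. Those times gave 0 genes lower at 2 h and 0 at 4 h and, over the 5 lists, 0 lower and 0 higher at 2 h and 0 lower and 0 higher at 4 h. They turned the 4 h minus 2 h differences of RGI2 (0.52), USV1 (0.034), HAP2 (0.36) and CTA1 (-0.37), and the 4 h differences of GLC3 (-0.15), CTA1 (-0.19), RRT13 (-0.13) and YPL229W (0.15). By the names of the libraries, the values at 0.5, 2 and 4 h of the titles are those of experiments 1, 2 and 3. Each is then taken over the 3 named times and is not part of a course over time. The cause of the turns was not tested.

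The pairing carried several calls. With no replicate block, USV1 at 2 h (-0.51) and 4 h (-0.76) and the 4 h against 2 h changes of RGI1 in WT (1.03) and of USV1 in ZCZ01 (0.81) and WT (1.06) were no longer called. With experiments 2 and 3 summed, the same 5 values (-0.60, -0.74, 0.68, 0.77 and 0.85) were not called, and the genes lower numbered 723 at 2 h and 720 at 4 h, in place of 1290 and 1199. The USV1 value at 2 h was also not called with DESeq2 (-0.50), RLE factors (-0.50), total counts (-0.40), a mean of at least 50 counts (-0.39), 1 replicate block per experiment (-0.58) or each time fitted alone (-0.49). The change of USV1 in ZCZ01 was not called with DESeq2 (0.78) or with no filter (0.78). A mean of at least 50 counts left 821 and 761 genes lower. Total counts raised the median over all genes by 0.15 at 2 h and by 0.12 for 4 h against 2 h in WT.

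Leaving out 1 experiment gave, for RGI1, -0.47 to -0.038 for 4 h minus 2 h, 0.55 to 0.91 for 4 h against 2 h in ZCZ01 and 0.59 to 1.38 in WT, and for RGI2 -3.75 to -2.24 in ZCZ01 and -1.63 to -0.71 in WT. For USV1 it gave -0.72 to -0.23 at 2 h, -0.87 to -0.72 at 4 h, -0.64 to 0.0020 for 4 h minus 2 h, 0.66 to 0.93 in ZCZ01 and 0.77 to 1.36 in WT. The genes lower numbered 627 to 1521 at 2 h and 654 to 1553 at 4 h. GLC3 at 4 h ran from -0.058 to 0.37 and VHR1 from -0.056 to 0.32. Runs without experiment 1 hold only the 2 alike experiments. Depth limits the size of the RGI2 fold change, with 0 to 7 reads in ZCZ01 at 2 h and 4 h.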
